A study of Chlorella sorokiniana with 6 samples.

Results

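ABC transporters of the green microalga *Chlorella sorokiniana* were followed across normal and mixotrophic conditions. They were taken as every transcript that the deposited annotation places in the MapMan functional class of ABC transporters and multidrug resistance systems, which gave 239 of 18310 transcripts, in 100 of 8419 Trinity components. A component is a set of assembled contigs that share sequence, so its transcripts may be isoforms or close relatives of one gene. The annotation name was checked against the description of each transcript. The class also took in 25 transcripts described as MATE (multidrug and toxic compound extrusion) efflux proteins and 8 described as protein kinases of the chloroplast, whose Arabidopsis relatives belong to the ABC1 kinase family. Neither group belongs to the ATP-binding cassette superfamily, and both are described apart from the other 206.

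RNA was sequenced from 3 cultures per condition after 7 days at 27 °C. Normal cultures stood in Bold's Basal Medium at 10 µmol photons of continuous light with 0% glucose, and mixotrophic cultures received 100 µmol photons and 2% glucose from mid log phase. Light and glucose were changed together, so their parts in any difference cannot be told apart. The labels carry a different strain number for each library (NIES-2168 to NIES-2173), whereas the study names NIES-2168 as its strain.

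ABC transporters use ATP hydrolysis at a pair of nucleotide-binding domains to move substrates across membranes, and plants and algae carry many of them. Their subfamilies have distinct roles. In land plants, C-type (MRP) proteins load glutathione conjugates, metal complexes and other anions into the vacuole, G-type proteins export lipids, hormones and defence compounds at the plasma membrane, D-type proteins bring fatty acyl-CoA into peroxisomes, and F-type (GCN) proteins lack membrane domains and act around the ribosome. Roles given below are those of the named land plant relatives and were not measured in this alga. Reading the words of each description placed 105 transcripts in subfamily G, 24 in C, 17 in F, 12 in A, 8 in B and 6 in D. A further 17 were described as NAP or non-intrinsic proteins, 2 carried no subfamily word, and for 15 the description is removed in the copy used here.

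Levels are in CPM, counts scaled to a common library total, which are shares of the RNA sequenced and are not corrected for transcript length. A smaller share of cells that express a transcript and less of its RNA per cell cannot be told apart in such data. A transcript was called upregulated or downregulated where edgeR's quasi-likelihood test gave a Benjamini-Hochberg adjusted p under 0.05 over all transcripts tested. The main comparison took replicates 2 and 3 of each condition, the 4 libraries in the study's supplementary expression table, and a second fit took all 6. Libraries held 2535461 to 4444858 counts. Normal replicate 1 stood apart. Over the class it differed from normal replicates 2 and 3 by a root mean square of 1.24 and 1.15 in log2 level. That was more than from the mixotrophic libraries (0.746 to 0.925), whereas normal replicates 2 and 3 differed by 0.296. Mixotrophic replicate 1 also stood off its partners, by 0.566 and 0.613 where mixotrophic replicates 2 and 3 differed by 0.218, and over all transcripts by 0.905 and 1.02 against 0.287. Results are therefore given over 4 and over 6 libraries, and p-values cover only the spread between these libraries.

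Of the 239 transcripts, 69 had no count in any library and 157 had enough counts to be tested over 4 libraries. Under mixotrophic conditions 88 of the 157 were downregulated and 25 upregulated, where 29% of all 12389 transcripts tested were downregulated and 28.6% upregulated. Their median log2 fold change was -0.51, against -0.02 over all transcripts. Changes of at least 1 on the log2 scale were seen in 51 downregulated and 11 upregulated members, against 12% and 11.7% of all transcripts tested. Over all 6 libraries 156 were tested, 45 were downregulated and 8 upregulated, where the background was 15.2% and 13.3%, and the median log2 fold change was -0.46. With the replicate number as a block the 6 libraries gave 35 downregulated and 7 upregulated members (background 10.5% and 9.97%). No called member of the 4-library fit was called in the opposite direction over 6. In 62 of the 156 all 3 mixotrophic libraries lay below all 3 normal ones and in 14 above, where the shares over all transcripts were 24.1% and 24.5%.

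Leaving the MATE proteins and kinases out gave 83 downregulated and 23 upregulated of 146 tested, with a median of -0.53. Normal replicate 1 lay nearer to the mixotrophic than to the normal mean in 49 of the 88 downregulated members and in 19 of the 25 upregulated ones, and it lay beyond all 3 mixotrophic libraries in 19 and 13 of them. Over all transcripts called, the share nearer to the mixotrophic mean was 44.9% of the downregulated and 50.9% of the upregulated. For the count beyond all 3 mixotrophic libraries no such share was taken, so it cannot be read as a trait of the class.

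**Figure D1:**
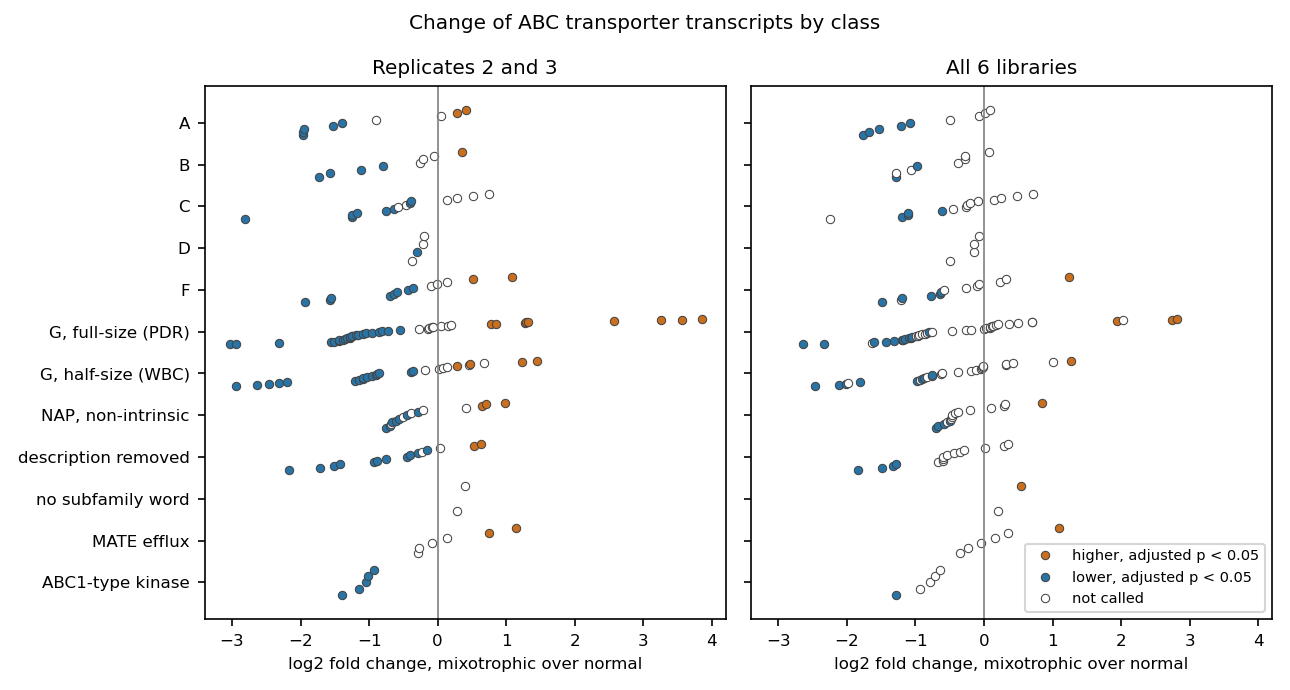
Log2 fold change of mixotrophic over normal conditions for each tested transcript (points), by class, over replicates 2 and 3 (left, 157 transcripts) and over all 6 libraries (right, 156 transcripts). Filled points passed an edgeR adjusted p under 0.05, in orange where higher and in blue where lower. Most classes lie to the left of 0 in both panels, the rises of at least 1 are mainly G-type, and fewer points are filled on the right.

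Summed over the 239 transcripts, RNA of the annotation class made up 13498, 28788 and 26818 CPM in normal replicates 1, 2 and 3. In mixotrophic replicates 1, 2 and 3 it made up 12294, 12309 and 12358 CPM. The mixotrophic libraries lay close together and below every normal library, and normal replicate 1 lay near them. The mean was 1.87-fold lower under mixotrophic conditions over 6 libraries (exact permutation test, two-sided, p = 0.1, the smallest that 3 against 3 allows) and 2.25-fold lower over replicates 2 and 3. One C-type transcript, g11034, held 28.4% and 27.3% of this sum in normal replicates 2 and 3, 8.68% to 9.22% in the mixotrophic libraries and 1.57% in normal replicate 1. Without it the sums were 13286, 20612 and 19499 CPM in the normal libraries and 11201 to 11227 CPM in the mixotrophic ones. That was 1.59-fold lower over 6 libraries (exact permutation test, two-sided, p = 0.1) and 1.79-fold lower over replicates 2 and 3. The 206 transcripts other than MATE proteins and kinases, g11034 included, held 12789, 27967 and 26047 CPM in the normal libraries. In the mixotrophic libraries they held 11691, 11694 and 11775 CPM.

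**Figure D2:**
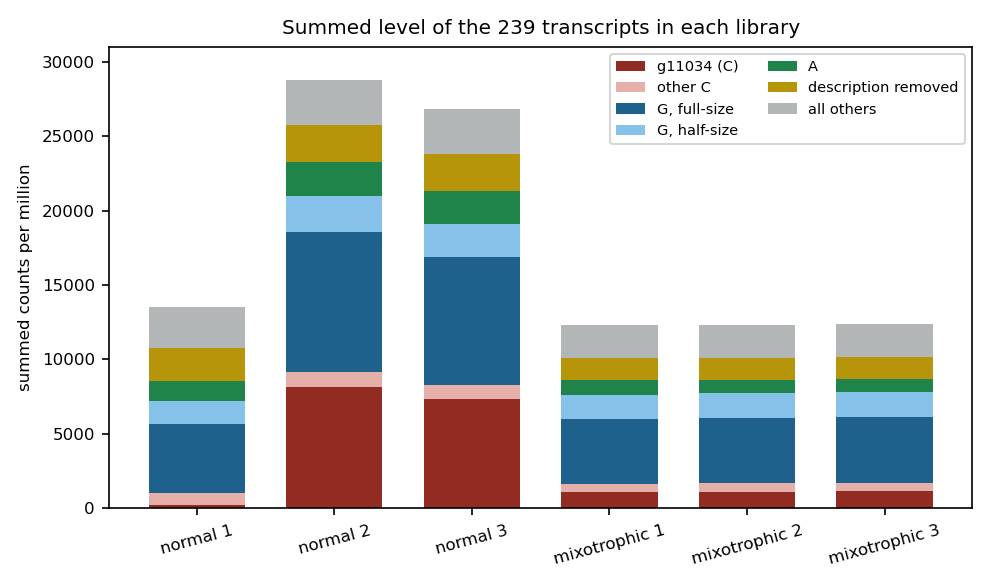
Summed level of the 239 transcripts (CPM) in each library, divided by class. The bars of normal replicates 2 and 3 reach 28788 and 26818 CPM, the other 4 lie between 12294 and 13498 CPM, and g11034 alone makes up 28.4% and 27.3% of the 2 tall bars.

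Subfamily C holds the MRP-type pumps, and 8 of its 14 tested transcripts were downregulated over 4 libraries while the other 6 were not called (median log2 fold change -0.52). Over 6 libraries 4 of the 14 were downregulated, 3 with the replicate block, and the median was -0.26. The transcript with the highest mean CPM of the class, g11034, is closest to Arabidopsis MRP2, a vacuolar pump of glutathione conjugates. Its level was 212, 8176 and 7319 CPM in normal replicates 1, 2 and 3, and 1067, 1108 and 1139.7 CPM in mixotrophic replicates 1, 2 and 3. The mixotrophic libraries lie close together, normal replicates 2 and 3 lie far above them, and normal replicate 1 lies far below them. Over 4 libraries g11034 was 7.01-fold lower under mixotrophic conditions (log2 fold change -2.81 ± 0.05 SE, edgeR adjusted p = 1.4e-26). Over 6 libraries the conditions overlapped and it was not called (log2 fold change -2.25 ± 1.11 SE, edgeR adjusted p = 0.19, with the replicate block 0.47).

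In the C-type sum without g11034, normal replicate 1 lay near the other normal libraries. Together the remaining 23 C-type transcripts held 833, 962 and 962 CPM in the normal libraries. In the mixotrophic ones they held 591, 562 and 559 CPM, with no overlap. Those of component TR11252|c0 made up 468, 456 and 475 CPM of the normal sums and 227, 207 and 200 CPM of the mixotrophic ones. In 7 of the 24 C-type transcripts, g11034 included, normal replicate 1 lay below all mixotrophic libraries. Component TR11252|c0 carried a steady decrease. Its transcript g2951, also closest to MRP2, stood at 217, 217 and 224 CPM in the normal and 105, 102 and 96.7 CPM in the mixotrophic libraries, and fell both over 4 (log2 fold change -1.17 ± 0.08 SE, edgeR adjusted p = 1.8e-13) and over 6 libraries (-1.12 ± 0.09 SE, edgeR adjusted p = 0.0014). In the same component g2953 and g2954, closest to MRP5, which carries inositol hexakisphosphate (phytate) into storage vacuoles in Arabidopsis, had log2 fold changes of -1.24 and -1.25 over 4 libraries and were also called over 6. The MRP11-like component TR34741|c0 held 8 transcripts, and its 4 tested ones had log2 fold changes between 0.14 and 0.75 and were not called. The MRP4-like transcripts, 4 in number, had no counts.

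Subfamily G was the largest, with 66 of 105 transcripts tested over 4 libraries. Of these 39 were downregulated and 13 upregulated (median log2 fold change -0.86), and over 6 libraries 20 of 65 were downregulated and 4 upregulated (17 and 5 with the replicate block). Full-size transporters of the PDR (pleiotropic drug resistance) type, which export defence compounds, hormones and lipids in land plants, had 23 downregulated and 9 upregulated of 40 tested over 4 libraries, and 12 and 3 of 39 over 6. Half-size transporters of the WBC (white-brown complex) type, which must pair to work, had 16 downregulated and 4 upregulated of 26 over 4 libraries, and 8 and 1 over 6. The medians of the types over 4 libraries were -0.84 and -0.87. Both the largest decreases and the largest increases of the class were G-type, with the exception of g11034.

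Among the increases, g13432 and g13431 are neighbouring transcripts of component TR51026|c0, closest to rice PDR3. The level of g13432 was 19.8, 4.58 and 4.26 CPM in the normal and 76.5, 62.2 and 69.0 CPM in the mixotrophic libraries, and that of g13431 was 18.5, 5.41 and 5.24 CPM (normal) and 70.7, 61.4 and 67.8 CPM (mixotrophic). In both, normal replicate 1 was above the other normal libraries and still well below the mixotrophic ones. The log2 fold changes over 4 libraries were 3.86 ± 0.21 and 3.57 ± 0.20 (SE), and over 6 libraries 2.81 ± 0.60 and 2.74 ± 0.50 (edgeR adjusted p = 0.02 and 0.012). The summed component rose as well, from 38.3, 10.0 and 9.5 CPM to 147, 124 and 137 CPM.

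A PDR6-like transcript, g25, rose from 25.4, 4.58 and 5.57 CPM to 47.9, 46.2 and 54.7 CPM, again with normal replicate 1 between the groups. Its change was 3.26 ± 0.22 (SE) on the log2 scale over 4 libraries (edgeR adjusted p = 2.3e-13) and 2.03 ± 0.64 over 6, where it missed the threshold without the replicate block (edgeR adjusted p = 0.062) and passed it with the block (0.043). Rice PDR3-like g7632 and g7633, from component TR30311|c0, showed a different pattern. Transcript g7633 stood at 100.0, 37.1 and 37.4 CPM in the normal and 99.8, 94.4 and 89.7 CPM in the mixotrophic libraries, so that normal replicate 1 reached the mixotrophic level. The pair rose by 1.28 each on the log2 scale over 4 libraries and had log2 fold changes of 0.71 and 0.69 over 6, where neither was called (edgeR adjusted p = 0.24 and 0.26).

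The half-size transcript g2158, closest to an Arabidopsis chloroplast ABC-2 type protein (At2g01320), rose in both fits. It stood at 121, 87.9 and 77.0 CPM in the normal and 234, 227 and 228 CPM in the mixotrophic libraries, with no overlap. It was 2.73-fold higher over 4 libraries (log2 fold change 1.45 ± 0.08 SE, edgeR adjusted p = 6.7e-15) and remained upregulated over 6 (1.27 ± 0.18 SE, edgeR adjusted p = 0.0059). Transcripts g12492 and g12495, of component TR48025|c0, have the same closest relative and moved the other way. The level of g12495 was 12.1, 57.1 and 57.0 CPM in the normal and 10.3, 10.6 and 7.85 CPM in the mixotrophic libraries, and its partner g12492 had 11.6, 55.8 and 59.0 CPM (normal) and 10.6, 11.3 and 9.81 CPM (mixotrophic). Normal replicate 1 of both lay just above the mixotrophic libraries. Their log2 fold changes over 4 libraries were -2.64 ± 0.18 and -2.46 ± 0.17 (SE), and over 6 libraries g12495 was called (edgeR adjusted p = 0.044) and g12492 was not (0.053). With the replicate block neither passed (0.068 and 0.073).

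**Figure D3:**
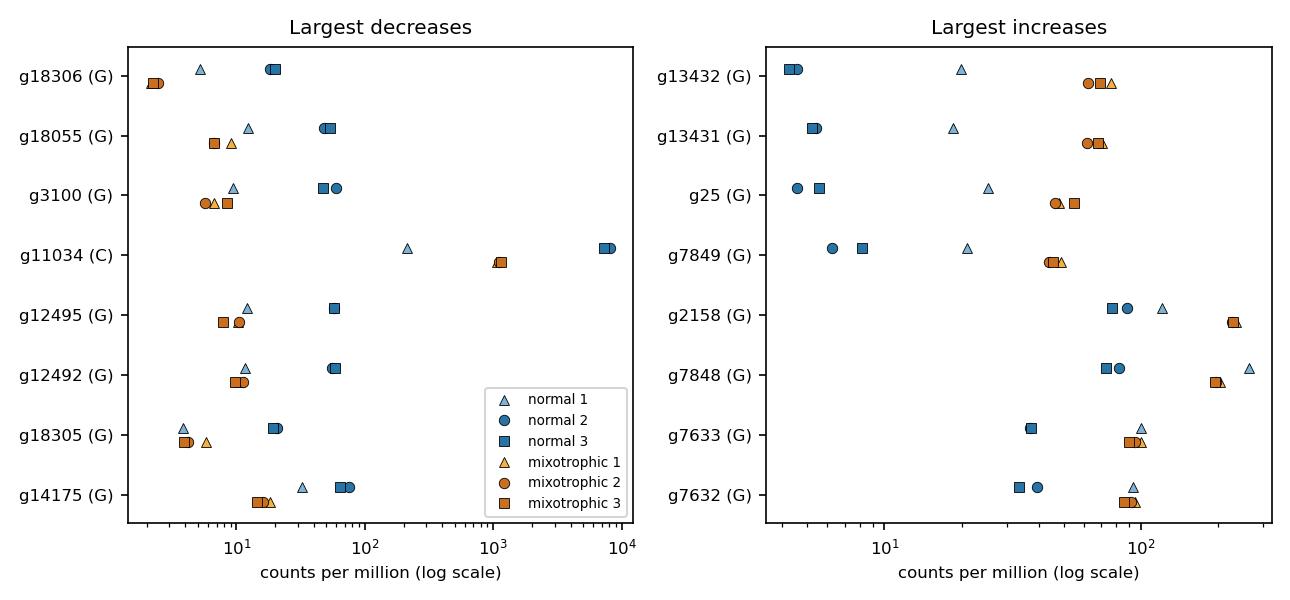
Level in CPM (log scale) of the 8 largest decreases (left) and 8 largest increases (right) over replicates 2 and 3, with 1 marker per library and the subfamily in brackets. Normal replicate 1 (light blue triangles) lies between the groups or at the mixotrophic level in most transcripts, and for g11034 it lies below the mixotrophic libraries at 212 CPM.

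Decreases of G-type transcripts were led by g18306, closest to Arabidopsis PDR5, with 5.24, 18.3 and 20.0 CPM in the normal and 2.16, 2.46 and 2.24 CPM in the mixotrophic libraries. Its neighbour g18305 had 3.86, 20.8 and 19.3 CPM (normal) and 5.82, 4.18 and 3.93 CPM (mixotrophic), with normal replicate 1 below every mixotrophic library. Both had few counts. Over 4 libraries their log2 fold changes were -3.03 ± 0.33 and -2.31 ± 0.29 (SE), and over 6 g18306 was called and g18305 was not (edgeR adjusted p = 0.018 and 0.1). Rice PDR3-like g18055 held 12.4, 48.3 and 53.1 CPM in the normal and 9.05, 6.64 and 6.73 CPM in the mixotrophic libraries (log2 fold change -2.94 ± 0.20 SE over 4, -2.33 ± 0.56 over 6, edgeR adjusted p = 2.0e-13 and 0.028, with the replicate block over 6 0.055).

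Among half-size transporters, g14175, closest to Arabidopsis At3g55090, stood at 32.2, 75.0 and 64.2 CPM in the normal and 18.3, 16.0 and 14.6 CPM in the mixotrophic libraries. All mixotrophic libraries lay below all normal ones, and it was called over 4 (log2 fold change -2.20 ± 0.16 SE, edgeR adjusted p = 5.9e-13) and over 6 libraries (-1.80 ± 0.33 SE, edgeR adjusted p = 0.012). The transcript g3100 is closest to ABCG14, which exports the hormone cytokinin in Arabidopsis. It held 9.37, 59.1 and 46.9 CPM in the normal and 6.68, 5.65 and 8.41 CPM in the mixotrophic libraries, a change of -2.93 ± 0.21 (SE) over 4 libraries (edgeR adjusted p = 7.0e-13) and -2.47 ± 0.67 over 6 (edgeR adjusted p = 0.04, with the replicate block 0.054). Its component TR11350|c4 holds 10 transcripts, 4 of them ABC transporters, and the summed component moved up (138, 134 and 139 CPM to 226, 235 and 251 CPM, log2 fold change 0.76 ± 0.07 SE), so the decrease belongs to g3100 and not to the whole component.

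The G-type transcripts with the most counts shared component TR38595|c4, whose 10 ABC transporters are all PDR-like and were all downregulated over 4 libraries, by 0.82 to 1.51 on the log2 scale. The highest of them in CPM, g9920, closest to rice PDR3, had 349, 1625 and 1512 CPM in the normal and 588, 613 and 661 CPM in the mixotrophic libraries. Rice PDR3-like g9923 had 229.8, 1379.8 and 1258 CPM (normal) and 452, 486 and 499 CPM (mixotrophic). Tobacco PDR1-like g9922 had 147, 992 and 932 CPM (normal) and 358, 362 and 359 CPM (mixotrophic). In 7 of the 10 transcripts, these 3 included, normal replicate 1 lay below all mixotrophic libraries while normal replicates 2 and 3 lay above them.

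The 3 transcripts changed over 4 libraries by -1.32 ± 0.05, -1.44 ± 0.05 and -1.44 ± 0.06 (SE) on the log2 scale, and over 6 libraries none of the 3 passed edgeR's test (adjusted p = 0.26, 0.28 and 0.33). The other pattern in the same component was that of g9925, g9926 and g9930, which were called over 6 libraries as well. Of these, g9930 held 211, 197 and 184 CPM in the normal and 80.6, 81.6 and 76.8 CPM in the mixotrophic libraries, with the 3 normal libraries close together. The summed component, which includes 5 further transcripts, held 2068, 6563 and 6023 CPM in the normal and 2590.4, 2700.1 and 2729 CPM in the mixotrophic libraries (log2 fold change -1.29 ± 0.05 SE over 4, edgeR adjusted p = 4.5e-13 over 4 and 0.15 over 6).

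Component TR30711|c0 was the largest, with 17 ABC transporter transcripts, of which 8 had no count and 7 were tested, and it was the only one with members called in both directions. Rice PDR3-like g7833 stood at 538, 673 and 614 CPM in the normal and 263, 263 and 277 CPM in the mixotrophic libraries, with normal replicate 1 close to the other normal libraries. It was downregulated over 4 and over 6 libraries (log2 fold change -1.28 ± 0.06 and -1.19 ± 0.11 SE, edgeR adjusted p = 5.4e-17 and 0.0017), and so were g7835, g7836 and g7837.

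In the same component PDR10-like g7849 rose from 20.9, 6.25 and 8.19 CPM to 48.7, 43.7 and 45.4 CPM. The change of g7849 was 2.58 ± 0.21 (SE) over 4 and 1.93 ± 0.44 over 6 libraries (edgeR adjusted p = 1.0e-11 and 0.024). Rice PDR1-like g7848 had 263, 82.0 and 73.1 CPM in the normal and 202, 196 and 193 CPM in the mixotrophic libraries, where normal replicate 1 lay above every mixotrophic library, and it rose over 4 (1.31 ± 0.09 SE, edgeR adjusted p = 1.5e-13) but was not called over 6 libraries (0.49 ± 0.51 SE, edgeR adjusted p = 0.53). Summed, the component fell by 0.88 ± 0.05 (SE) on the log2 scale over 4 libraries, so that the sum hides both rises.

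**Figure D4:**
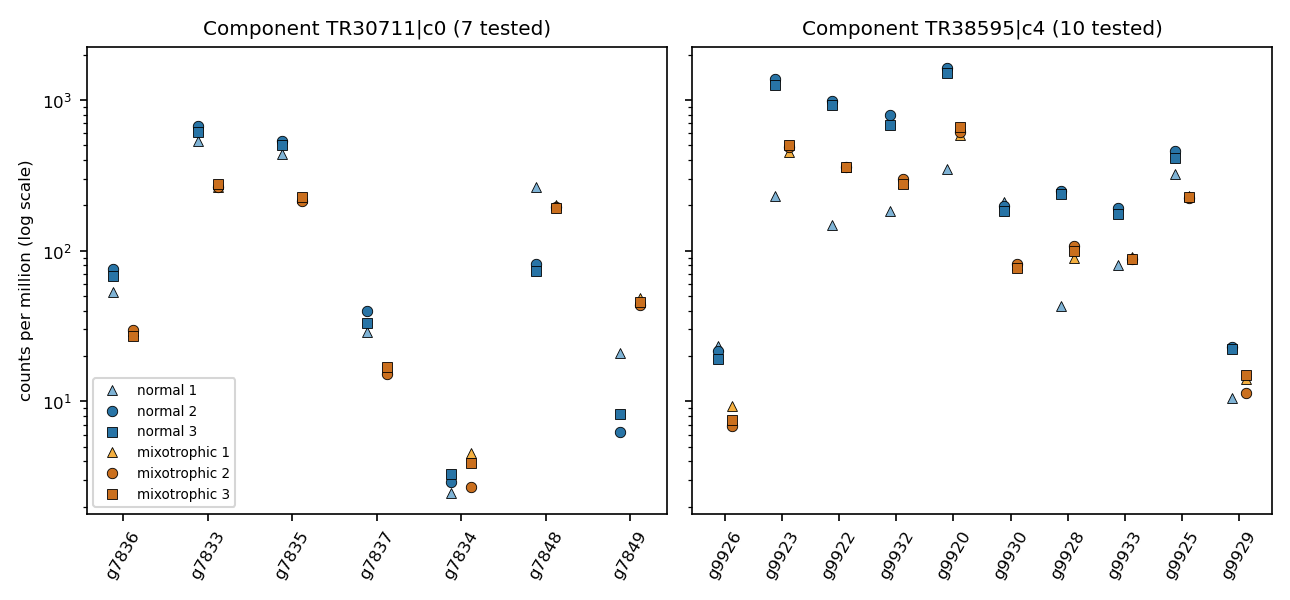
Level in CPM (log scale) of each tested ABC transporter transcript of components TR30711|c0 (left, 7 transcripts) and TR38595|c4 (right, 10 transcripts), ordered by log2 fold change, with 1 marker per library. On the left 4 transcripts are lower and 2 higher in mixotrophic replicates 2 and 3, and on the right normal replicate 1 (light blue triangles) lies below the mixotrophic libraries in 7 transcripts.

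Tobacco PDR1-like transcripts of other components also fell, with no overlap. Tobacco PDR1 is a plasma membrane exporter of antifungal diterpenes. The level of g6011 was 472, 461 and 404 CPM in the normal and 142, 150.2 and 148 CPM in the mixotrophic libraries (log2 fold change -1.55 ± 0.07 SE, edgeR adjusted p = 3.0e-17 over 4 and 7.2e-04 over 6). For g7585 it was 251, 255 and 225 CPM (normal) and 118, 115 and 121 CPM (mixotrophic) (log2 fold change -1.04 ± 0.08 SE, edgeR adjusted p = 2.6e-12 over 4 and 0.0019 over 6). Here normal replicate 1 stood level with its partners. Both were picked for the text with their values in view.

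Subfamily A, whose mammalian members carry lipids, had 5 downregulated, 2 upregulated and 2 not called of 9 tested over 4 libraries, with a median log2 fold change of -1.40, and the same 5 were downregulated over 6. The highest in CPM, g11018, closest to ATH7 of Arabidopsis, had 370.1, 847 and 810.4 CPM in the normal and 295, 298 and 284 CPM in the mixotrophic libraries. Transcript g9390, closest to ABCA2, had 171, 273 and 277 CPM (normal) and 80.2, 71.8 and 73.7 CPM (mixotrophic). Normal replicate 1 lay between the groups in both. Their log2 fold changes were -1.53 ± 0.06 and -1.94 ± 0.08 (SE) over 4 and -1.21 ± 0.31 and -1.68 ± 0.21 over 6 libraries, with edgeR adjusted p = 0.035 and 0.0038 over 6.

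The upregulated A-type transcripts were both closest to the full-size ABCA1 and changed little. Transcript g86 had 79.1, 28.7 and 43.3 CPM in the normal and 61.0, 47.9 and 51.9 CPM in the mixotrophic libraries. Transcript g18286 had 93.4, 54.1 and 55.1 CPM (normal) and 69.6, 66.1 and 69.2 CPM (mixotrophic). Normal replicate 1 was the highest library for each, and the increases of 0.42 ± 0.15 and 0.28 ± 0.12 (SE) over 4 libraries shrank to 0.08 and 0.01 over 6, where edgeR called neither (adjusted p = 0.92 and 0.98). DESeq2 called neither over 4 libraries (adjusted p = 0.17 and 0.26).

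Subfamily B holds P-glycoproteins, some of which move auxin in land plants, and half-size transporters of organelles. Of its 8 transcripts 4 were downregulated and 1 upregulated over 4 libraries, and 2 were downregulated over 6. The P-glycoprotein 10-like g13034 had 84.1, 121 and 131 CPM in the normal and 51.7, 46.2 and 39.8 CPM in the mixotrophic libraries, with no overlap (log2 fold change -1.57 ± 0.11 SE, edgeR adjusted p = 3.7e-13 over 4 and 0.0079 over 6). The TAP1-like half-size transporter g11889 had 36.7, 111 and 107 CPM in the normal and 37.5, 32.7 and 34.20 CPM in the mixotrophic libraries, so that normal replicate 1 fell among the mixotrophic libraries (log2 fold change -1.73 ± 0.11 SE, edgeR adjusted p = 1.2e-13 over 4 and 0.067 over 6). The B-type transcript highest in CPM, g6006, is closest to the mitochondrial half-size transporter ATM1. It had 114, 65.0 and 66.2 CPM in the normal and 88.8, 80.6 and 89.7 CPM in the mixotrophic libraries, with normal replicate 1 the highest of all, and was called over 4 but not over 6 libraries (0.35 ± 0.11 SE, edgeR adjusted p = 0.0058 over 4 and 0.88 over 6). DESeq2 over the 4 libraries did not call g6006 (adjusted p = 0.11).

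Subfamily F, whose yeast member GCN20 acts in the control of translation, had 8 downregulated and 2 upregulated of 13 tested over 4 libraries, and 5 and 1 over 6, or 2 and 1 over 6 with the replicate block. Its GCN3-like transcripts moved in opposite directions. Transcript g6863 rose from 27.0, 35.4 and 39.7 CPM in the normal to 78.2, 77.9 and 84.7 CPM in the mixotrophic libraries, with no overlap (log2 fold change 1.08 ± 0.12 SE over 4 and 1.24 ± 0.17 over 6, edgeR adjusted p = 1.0e-08 and 0.0046). Transcript g7506 fell from 61.2, 147 and 139.6 CPM to 48.5, 39.1 and 36.4 CPM (log2 fold change -1.94 ± 0.11 SE over 4 and -1.48 ± 0.35 over 6, edgeR adjusted p = 1.4e-15 and 0.027), although with the replicate block it was not called over 6 (0.055).

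The transcript g2475, also GCN3-like, had 45.5, 107 and 99.6 CPM in the normal and 38.8, 31.9 and 38.7 CPM in the mixotrophic libraries (log2 fold change -1.58 ± 0.12 SE, edgeR adjusted p = 2.2e-12 over 4, 0.043 over 6 and 0.068 over 6 with the replicate block). GCN4-like transcripts changed less. The F-type transcript highest in CPM, g1096, had 273, 194 and 191 CPM in the normal and 138, 159 and 146 CPM in the mixotrophic libraries (log2 fold change -0.36 ± 0.08 SE, edgeR adjusted p = 2.2e-04 over 4 and 0.051 over 6). The GCN4-like g7087 rose over 4 libraries (0.52 ± 0.22 SE, edgeR adjusted p = 0.041) and was not called over 6 (0.26) or by DESeq2 over 4 (adjusted p = 0.28).

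The NAP or non-intrinsic group was gathered by the wording of the descriptions. Later plant nomenclature places some of its members in subfamilies B or G, so the counts of these groups depend on that wording. The group had 7 downregulated and 3 upregulated of 15 tested over 4 libraries and 4 and 1 over 6. With the replicate block over 6 libraries 1 was downregulated and 0 were upregulated. Every log2 fold change of the group lay within 1 of 0 in both fits. The plastid protein NAP14 was the closest relative of g17928, which rose from 28.7, 17.1 and 21.6 CPM to 43.1, 43.5 and 34.8 CPM with no overlap (log2 fold change 0.98 ± 0.18 SE, edgeR adjusted p = 3.2e-05 over 4, 0.036 over 6 and 0.052 with the replicate block). Transcript g15511 is closest to TGD3, the ATPase of the system that brings lipids from the endoplasmic reticulum into plastids in Arabidopsis. It had 62.0, 85.8 and 64.2 CPM in the normal and 40.1, 45.5 and 44.3 CPM in the mixotrophic libraries (log2 fold change -0.75 ± 0.13 SE, edgeR adjusted p = 1.6e-05 over 4 and 0.024 over 6).

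The highest of the NAP group in CPM, g8612, is closest to NAP6, the SufD protein of plastid iron-sulphur cluster assembly. It had 48.0, 117 and 135 CPM in the normal and 92.0, 85.8 and 82.4 CPM in the mixotrophic libraries, with normal replicate 1 below all of the latter, and was called lower over 4 but not over 6 libraries (-0.61 ± 0.10 SE, edgeR adjusted p = 2.7e-06 over 4 and 0.76 over 6). The NAP9-like g8735 had 29.2, 15.4 and 16.7 CPM (normal) and 22.6, 27.8 and 25.5 CPM (mixotrophic) and was called higher over 4 but not over 6 libraries (0.70 ± 0.20 SE, edgeR adjusted p = 0.003 over 4 and 0.48 over 6), and not by DESeq2 over 4 (adjusted p = 0.081). Subfamily D was nearly level, with 1 of 4 tested transcripts downregulated over 4 libraries. This was g10286, with 50.4, 72.5 and 67.8 CPM in the normal and 56.3, 57.8 and 57.5 CPM in the mixotrophic libraries (-0.30 ± 0.11 SE, edgeR adjusted p = 0.024). DESeq2 over the same 4 libraries did not call it (adjusted p = 0.21). Of the 2 transcripts without a subfamily word, g1040 was called higher over 6 but not over 4 libraries, with 17.6, 20.0 and 18.0 CPM in the normal and 30.6, 26.8 and 23.8 CPM in the mixotrophic libraries (edgeR adjusted p = 0.078 over 4, 0.043 over 6 and 0.11 with the replicate block).

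Of the 15 transcripts whose description is removed, 11 were downregulated and 2 upregulated over 4 libraries, and 4 were downregulated over 6. The highest in CPM, g13033, shares component TR49831|c1 with the P-glycoprotein 10-like g13034 and g13035. It had 499, 709.7 and 694 CPM in the normal and 254, 253 and 248 CPM in the mixotrophic libraries, with no overlap (log2 fold change -1.51 ± 0.06 SE, edgeR adjusted p = 4.1e-19 over 4 and 0.0031 over 6). Transcript g13031, of component TR49831|c0, had 152, 219 and 201 CPM (normal) and 75.2, 70.0 and 59.2 CPM (mixotrophic) and fell in both fits (-1.71 ± 0.09 SE over 4, edgeR adjusted p = 0.0035 over 6). The rises were g6004 and g6005, which share component TR22939|c2 with the ATM1-like g6006 and its pattern. Transcript g6004 had 159, 84.1 and 102 CPM in the normal and 148, 143 and 133 CPM in the mixotrophic libraries, and g6005 had 115, 62.9 and 69.5 CPM (normal) and 104, 101 and 109 CPM (mixotrophic). They rose by 0.54 and 0.64 on the log2 scale over 4 libraries and were not called over 6 (edgeR adjusted p = 0.43 and 0.34).

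The kinases and the MATE proteins, which share the annotation class but not the protein family, are given apart. All 5 tested ABC1-type kinase transcripts were downregulated over 4 libraries, and over 6 libraries 1 of them was, or 2 with the replicate block. In Arabidopsis the closest relatives, ABC1K1 and ABC1K3, sit on plastoglobules and act in the metabolism of prenylquinones such as plastoquinone and tocopherol. The ABC1K1-like g3764 had 189, 233 and 225 CPM in the normal and 89.7, 88.5 and 88.6 CPM in the mixotrophic libraries, and fell over 4 (-1.39 ± 0.08 SE, edgeR adjusted p = 3.5e-15) and over 6 libraries (-1.28 ± 0.12 SE, edgeR adjusted p = 0.0016). The 4 ABC1K3-like transcripts of component TR20154|c0 fell over 4 libraries by 0.92 to 1.15 on the log2 scale, and g5287, with 49.3, 103 and 93.4 CPM in the normal and 38.4, 46.7 and 42.9 CPM in the mixotrophic libraries, missed the threshold over 6 (edgeR adjusted p = 0.056, with the replicate block 0.047). The other 3 were not called over 6 libraries in either fit (edgeR adjusted p = 0.1, 0.16 and 0.12 for g5284, g5285 and g5286 without the block).

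MATE proteins exchange drugs and metabolites for protons or sodium. Of their 25 transcripts 18 had no count, 16 of which formed component TR59471|c1, and 2 of 6 tested were upregulated over 4 libraries while the other 4 were not called. Transcript g13098, closest to Arabidopsis At5g52050, had 37.5, 31.2 and 32.4 CPM in the normal and 73.9, 77.9 and 64.8 CPM in the mixotrophic libraries, with no overlap, and rose over 4 (1.14 ± 0.14 SE, edgeR adjusted p = 3.7e-08) and over 6 (1.09 ± 0.13 SE, edgeR adjusted p = 0.0035). The highest in CPM, g280, had 193, 114 and 87.2 CPM (normal) and 163, 172 and 167 CPM (mixotrophic), with normal replicate 1 the highest library, and was called over 4 but not over 6 libraries (0.75 ± 0.10 SE, edgeR adjusted p = 9.2e-08 over 4 and 0.43 over 6).

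Transcripts of one component may divide the reads of one gene, so counts were also summed per component. Of the 100 components, MATE and kinase ones included, 47 held more than 1 transcript of the annotation class. Of the 100, 24 also held transcripts of other classes, and 96 were tested. Over 4 libraries 55 were downregulated and 18 upregulated, where 30.6% and 30.5% of all components tested were called, and the median log2 fold change was -0.47 against -0.03 over all components. Over 6 libraries 33 were downregulated and 7 upregulated (background 17% and 14.6%), and with the replicate block 20 and 6 (background 11.4% and 10.6%). By class, 21 of 38 G-type components were downregulated and 9 upregulated over 4 libraries. The counts were 5 and 1 of 9 C-type, 4 and 2 of 7 A-type and 6 and 1 of 10 F-type. They were 3 and 1 of 6 B-type and 5 and 2 of 8 NAP-type. Each sum takes in every transcript of a component, so a call need not come from the class it is listed under. The C-type rise was TR58848|c1, whose 4 C-type transcripts had no count. One of the A-type rises was TR29334|c0, whose only A-type transcript had no count. Among the G-type rises was TR11350|c4, in which g3100 fell. Over 6 libraries the counts were 14 and 3 for G, 2 and 0 for C, 4 and 1 for A, 5 and 1 for F, 1 and 0 for B and 4 and 1 for NAP. With the replicate block they were 8 and 4 for G, 1 and 0 for C, 3 and 0 for A, 1 and 1 for F, 2 and 0 for B and 2 and 0 for NAP. The A-type rise over 6 libraries was TR66844|c0, which also holds a transcript of another class. Its A-type g18286 was not called there (edgeR adjusted p = 0.98). TR11350|c4 was among the G-type rises with and without the block. Changes of at least 1 on the log2 scale were seen in 27 downregulated and 7 upregulated components over 4 libraries, against 10.9% of all components in each direction. Among the 72 tested components made up of transcripts of the annotation class alone, MATE proteins and kinases included, 41 were downregulated and 12 upregulated over 4 libraries. Over 6 libraries 23 of the 72 were downregulated and 5 upregulated, and with the replicate block 16 and 5.

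In the other transport classes of the annotation, 99 of 392 tested transcripts were upregulated and 141 downregulated over 4 libraries. Their median log2 fold change was -0.18. Over all transcripts tested, 28.6% were upregulated and 29% downregulated over 4 libraries, and 13.3% and 15.2% over 6. Metal transporters had 34 of 51 downregulated and 5 upregulated, and P- and V-type ATPases had 14 of 21 upregulated and 2 downregulated. Smaller classes reached higher shares, with 9 of 12 transporters of unspecified anions downregulated and both porins upregulated. Sugar transporters had 10 of 37 upregulated (27%) and 7 downregulated (18.9%). Over 6 libraries 26 of 51 metal transporters were downregulated and 12 of 20 ATPases upregulated, while 0 of the 12 anion transporters were downregulated. Glutathione S-transferases, which make the conjugates that C-type pumps carry, had 3 of 12 downregulated (25%) and 2 upregulated (16.7%) over 4 libraries. Fatty acid beta-oxidation, whose substrates D-type proteins carry, had 9 of 15 downregulated and 3 upregulated over 4 libraries. Over 6 libraries 0 of its 15 transcripts were downregulated and 2 upregulated. Cytochrome P450 transcripts had 4 of 15 downregulated (26.7%) and 3 upregulated (20%) over 4 libraries, and metal handling had 6 of 16 downregulated. Over 4 libraries the downregulated shares of glutathione S-transferases and cytochrome P450 lay near that over all transcripts, as did the upregulated share of sugar transporters. Over 6 libraries glutathione S-transferases had 3 of 9 downregulated (33.3%) and 2 upregulated. Cytochrome P450 had 1 of 15 downregulated (6.67%) and 1 upregulated. Sugar transporters had 5 of 37 upregulated (13.5%) and 1 downregulated over 6. None of these lists was tested as a set.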

How the data were processed

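Per their methods, the authors pooled reads for assembly with Trinity and predicted coding transcripts with AUGUSTUS. The read totals in the study, that of the assembly included, cover 2 replicates per condition. The authors aligned reads with Subread and counted them with featureCounts, per their methods, while the labels name BWA and DESeq2. The deposited table gives raw counts per transcript for 6 libraries, not normalised. The authors' tables of fold changes, p-values and enrichment were not used. Here the quasi-likelihood test of edgeR 4.0.16 (R 4.3.3) was run across all transcripts after TMM scaling, with low transcripts removed by filterByExpr at 10 counts, two-sided and with Benjamini-Hochberg adjustment, and the rows of the class were printed. SE was obtained from the F statistic and the log2 fold change. DESeq2 1.42.0, other scaling, filters and replicate choices were alternatives. Scripts were tested on simulated data. Same-numbered libraries deviated together over 6 libraries (correlation of deviations 0.70, 0.63 and 0.54), so the replicate number was fitted as a block there. Normal replicate 2 also deviated with mixotrophic replicate 3 (0.68) and normal replicate 3 with mixotrophic replicate 2 (0.51), so the shared pattern mainly sets replicate 1 of both conditions against replicates 2 and 3. Per the study's methods a pre-culture was split over both conditions, and which libraries shared one is not given.

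Subfamilies come from words in the description of the best hits, and full-size and half-size G types were divided after values were seen. Named transcripts are the 8 largest rises and falls whose conditions did not overlap in the 4 libraries and whose mean log2 CPM was 3 or more, and per class the highest in CPM and up to 2 rises and 2 falls of smallest p. Members of the largest components and g6011 and g7585 were added. The members and lists were chosen with earlier results of these data known. No sequences of these transcripts were at hand, so none is printed. Libraries of 2535461 to 4444858 counts limit precision for transcripts of a few CPM.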

Additional observations from a re-analysis of the deposited data

How the results depend on the processing

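Over 4 libraries the class held 88 downregulated and 25 upregulated members, MATE proteins and kinases included. These counts stayed within 1.5 times under RLE or upper quartile scaling, under DESeq2 (72 and 17), and without a filter. They also did with only transcripts of 10 counts or more in each library. The same held without transcripts low in replicate 1 of both conditions, a group of 878 that holds 2 of the class. Leaving out 1 library gave 79 to 84 and 21 to 23, and for components (55 and 18) 50 to 54 and 16 to 19. With the replicate block the counts were 86 and 23. In these 4 libraries same-numbered replicates did not deviate together (correlation -0.18), and a crossed pairing, chosen after seeing the data, gave 89 and 26. All 6 libraries gave 45 and 8, with the replicate block 35 and 7, and for components 33 and 7, with the block 20 and 6. Requiring also a 2-fold difference left 51 and 11 transcripts and 27 and 7 components, and summing per component gave 55 and 18.

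The counts over 6 libraries depended on every library. Without normal replicate 1 they rose to 85 and 24 transcripts and 55 and 19 components. Leaving out any other library lowered them, so that the range was 19 to 85 downregulated and 3 to 24 upregulated transcripts, and 11 to 55 and 4 to 19 components. DESeq2 over 6 libraries gave 55 and 9. The cause was not tested.

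Of the 46 named transcripts, 22 had the same call over 6 libraries, 23 lost it and 1 (g1040) gained it. Over 6 libraries, direction turned for g86 (-0.027) and g18286 (-0.0083) without mixotrophic replicate 1, for g86 (-0.19), g18286 (-0.12) and g6006 (-0.065) without normal replicate 2, and for g86 (-0.019), g18286 (-0.12), g6006 (-0.057) and g8612 (0.082) without normal replicate 3. The fits without replicate 2 or 3 were chosen after seeing the data, and none of these values passed the test. The summed component turned against g3100 (0.76), g7848 (-0.88) and g7849 (-0.88), since it holds other transcripts. DESeq2 lost 6 of the named calls over 4 libraries, those of g86, g18286, g6006, g7087, g8735 and g10286. Calls below about 10 CPM rest on few counts, and 2 libraries per condition leave the spread between cultures poorly measured.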
